A study of Mus musculus with 6 samples.

Results

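The 10 genes described here are Wnt antagonists, Wnt signalling genes and markers of fat expansion, taken by name from the deposited expression tables: the secreted Frizzled-related proteins Sfrp1, Sfrp2, Sfrp4 and Sfrp5, the Dickkopf genes Dkk2 and Dkk3, the ligands Wnt5a and Wnt10b, the receptor Fzd4, and Mest. All 10 had a row among 17342 named genes, and 9 of them passed the filter that left 11086 genes for testing. The libraries came from inguinal fat (a subcutaneous white depot) of C57BL/6 mice aged 8 weeks, exposed to cold, with 3 wild-type (WT) libraries numbered 1 to 3 and 3 Rarres2-/- libraries numbered 4 to 6. Rarres2 encodes chemerin, and Rarres2-/- mice lack it in the whole body as far as the labels say. The temperature, the time in the cold, the sex of the mice and the deleted stretch of Rarres2 were not given in the sources used here, and both genotypes were cold-stimulated, so no value below measures the effect of cold. Nothing in the labels says that each library is a different mouse, so the p-values measure the spread between libraries, which may be technical.

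Wnt proteins are secreted ligands that bind Frizzled receptors together with the co-receptors Lrp5 or Lrp6 and keep beta-catenin from being degraded. In fat depots this signal holds preadipocytes back from becoming adipocytes, and Wnt10b is the ligand best known for it. Sfrp proteins carry a Frizzled-like domain and bind Wnt ligands outside the cell, while Dickkopf proteins such as Dkk2 act on the Lrp co-receptors. Mest, an imprinted gene expressed from the paternal copy, encodes an enzyme-like protein of the endoplasmic reticulum, and its transcript is known in mice as a marker of expanding fat, often together with Sfrp5.

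Levels are in FPKM, fragment counts divided by transcript length and by the mapped total. Each log2 difference is Rarres2-/- minus WT on log2(FPKM + 1), where the added value shrinks the differences of low genes. WT libraries had 436 to 610 FPKM of Rarres2 itself, and Rarres2-/- libraries had 0.260 to 6.35 FPKM. Adiponectin (Adipoq), which defines adipocytes, was at 2118 to 2809 FPKM in all libraries, while epithelial markers summed to at most 1.60 FPKM and mesothelial markers to 1.30 to 3.56 FPKM. The 7 adipocyte markers, Adipoq among them, were less even as a sum. It was highest in WT replicate 1 (35039 FPKM, of which Cfd 25747 FPKM) and lowest in Rarres2-/- replicate 4 (17725 FPKM, of which Cfd 10472 FPKM). WT replicate 1 stood apart from the other WT libraries: its 10 progenitor and fibroblast markers, none at 0, summed to 1178 FPKM, against 5189 and 3844 FPKM in WT replicates 2 and 3 and 2174 to 2443 FPKM in Rarres2-/-. It also had the most skeletal muscle marker expression (1143 FPKM, other libraries 134 to 388 FPKM) and a depth of 0.499 times that of WT replicate 2, as estimated from the spacing of low values, and the small nucleolar RNA Snord2 made up 62.1% of its summed FPKM. Rarres2-/- replicate 4 shared with it a high endothelial marker sum (137 and 245 FPKM, other libraries 39.5 to 46.6 FPKM) and a high mural marker sum (164 and 157 FPKM, other libraries 41.4 to 59.8 FPKM).

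Mest and Fzd4 were higher in every Rarres2-/- library than in any WT library, and these were the only members whose genotypes did not overlap. By limma, 0 of the 9 tested members had an adjusted p under 0.05, where 0 of 11086 genes did (0%). Even Rarres2 itself, with a log2 difference of -7.51, had an adjusted p of 0.0597 by limma. A member without a call is thus not shown to be unchanged. At an unadjusted p under 0.05, limma had 2 of 9 members higher (Mest and Fzd4) against 2.2% of all genes, and 0 of 9 lower against 1.73%. Groups that lay apart with Rarres2-/- higher were found in 2 of 9 members against 5.81% of all tested genes, and with Rarres2-/- lower in 0 of 9 members against 4.53% (10.3% of all genes in either direction). Each tested member had an adjusted p of 0.999. Of the 9 members 5 had a higher mean log2 value in Rarres2-/- and 4 a lower one, where 48.6% of all genes had a higher one. Their median difference was 0.02, beside -0.01 over all genes tested, so the members did not lean one way as a list.

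**Figure D1:**
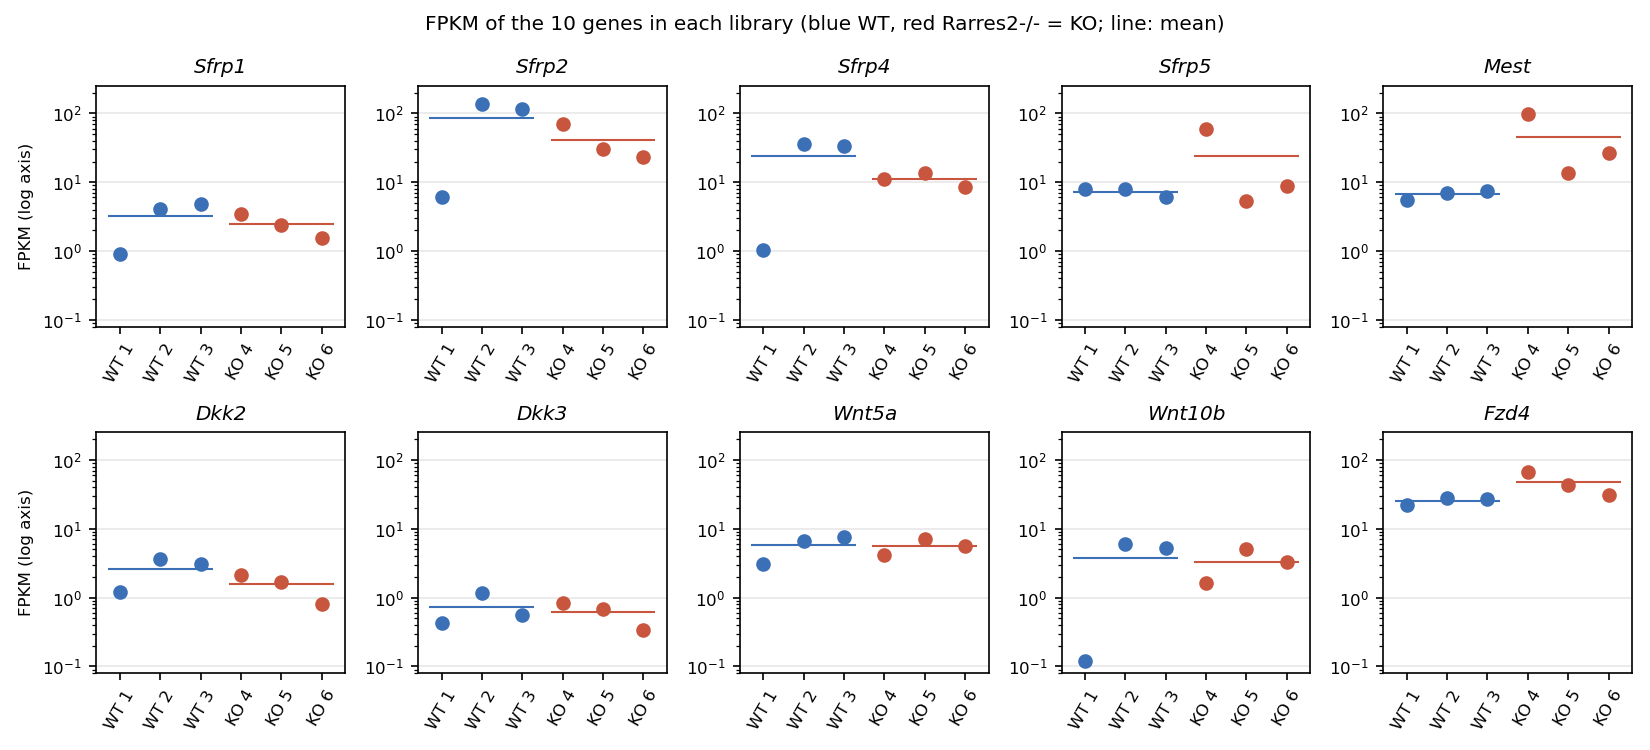
FPKM (log axis) of each of the 10 genes in every library, with WT in blue, Rarres2-/- (KO) in red and a line at each genotype's mean. Mest and Fzd4 separate the genotypes, while WT 1 lies far below WT 2 and WT 3 for Sfrp2, Sfrp4 and Wnt10b and KO 4 lies above all other libraries for Sfrp5 and Mest.

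In WT replicates 1 to 3, Mest (chromosome 6, 30733506 to 30748466, GRCm38) had 5.60, 6.89 and 7.45 FPKM, and Rarres2-/- replicates 4 to 6 had 98.3, 13.4 and 26.2 FPKM. WT libraries lay within 1.33 times of each other, whereas the Rarres2-/- libraries spanned 7.33 times, with replicate 4 far above the rest. WT averaged 6.64 ± 0.951 FPKM, and the Rarres2-/- mean of 46.0 ± 45.8 FPKM was 6.92 times that (SD, n = 3 each). On the log2 scale the difference was 2.16 (SE 0.643, unadjusted p = 0.0127, adjusted p = 0.999 by limma). It kept its sign in all 16 alternatives, where it ran from 1.0 to 2.77 with adjusted p of 0.0589 to 1.0, and it was 1.38 without Rarres2-/- replicate 4. In the annotation Mest shares 913 bases with Copg2, and the sources used here do not give the handling of strand, so reads from that stretch cannot be assigned to either gene. Copg2, a coat protein gene, ranged over 4.67 to 13.4 FPKM among WT libraries and over 14.6 to 17.1 FPKM among Rarres2-/- libraries. Its genotypes also lay apart, over a narrower range than for Mest.

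Fzd4 (chromosome 7, 89404366 to 89410110) encodes the Frizzled receptor of adipose tissue with the highest level in these libraries. It was at 22.1, 27.9 and 26.8 FPKM in WT and at 66.9, 43.1 and 31.1 FPKM in Rarres2-/-. As for Mest, replicate 4 was the highest, and the lowest Rarres2-/- library was close to the highest WT library. With means of 25.6 ± 3.09 FPKM (WT) and 47.0 ± 18.2 FPKM (Rarres2-/-; SD, n = 3 each), its difference on the log2 scale was 0.79 (SE 0.282, unadjusted p = 0.0269, adjusted p = 0.999 by limma). Over 16 alternatives the difference stayed between 0.41 and 1.05. With array weights, which give noisier libraries less say, Fzd4 had a difference of 0.61 and an adjusted p of 0.0276 (range over its alternatives 0.0276 to 1.0), in a fit that called 1524 genes (13.7%; 6.95% higher and 6.8% lower) and 3 members. The weights were 0.192, 2.81 and 2.27 for WT replicates 1 to 3 and 0.179, 6.19 and 0.736 for Rarres2-/- replicates 4 to 6. The Rarres2-/- side of that fit thus rested mostly on replicate 5. In the annotation 338 bases of Tmem135 overlap Fzd4, so reads from that stretch cannot be assigned to either gene. Tmem135, a membrane protein gene of peroxisomes and mitochondria, ranged over 32.5 to 44.1 FPKM among WT and over 44.4 to 67.3 FPKM among Rarres2-/- libraries. Its genotypes thus also lay apart, narrowly, and its highest library was replicate 6, where that of Fzd4 was replicate 4. The part of shared reads was not tested.

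Sfrp5 (chromosome 19, 42197971 to 42202252), the Sfrp gene known from expanding adipocytes, was at 7.89, 7.96 and 6.03 FPKM in WT and at 58.4, 5.43 and 8.77 FPKM in Rarres2-/-. Replicate 4 alone was high, 8.23 times the mean of the other Rarres2-/- libraries, and replicate 5 was the lowest of all 6. The log2 difference of 0.91 (SE 0.767, adjusted p = 0.999 by limma) turned to -0.057 without replicate 4, so it rests on that library. In the same library Mest was 4.97 times and Fzd4 1.80 times the mean of the other Rarres2-/- libraries. Its endothelial and mural marker sums, given above, were high as well, as were those of WT replicate 1, and their part in these values was not tested.

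Mest, Fzd4 and Sfrp5 had their highest values in the same library, and their promoter sequences are shown to let a reader compare them. Each is the 250 bases before a RefSeq start (GRCm38.p6), in the sense of the gene, with capitals for matches to 4 motifs searched on both strands: the TCF/LEF core CTTTGA, the CREB half-site TGACG, the SP1 box GGGCGG and the E-box CACGTG. RefSeq gives Mest other starts too, and the one shown lies at chr6:30737800-30738049 on the plus strand. Fzd4 is chr7:89404116-89404365 on the plus strand and Sfrp5 is chr19:42202253-42202502 on the minus strand.
Mest: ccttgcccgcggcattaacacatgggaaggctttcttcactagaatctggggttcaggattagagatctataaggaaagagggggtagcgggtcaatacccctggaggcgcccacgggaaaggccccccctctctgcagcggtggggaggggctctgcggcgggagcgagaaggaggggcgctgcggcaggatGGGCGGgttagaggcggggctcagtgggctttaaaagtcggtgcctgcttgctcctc
Fzd4: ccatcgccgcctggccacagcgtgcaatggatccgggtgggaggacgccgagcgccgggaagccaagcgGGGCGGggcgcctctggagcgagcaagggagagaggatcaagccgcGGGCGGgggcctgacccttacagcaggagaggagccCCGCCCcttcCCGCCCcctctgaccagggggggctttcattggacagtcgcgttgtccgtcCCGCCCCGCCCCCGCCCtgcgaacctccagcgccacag
Sfrp5: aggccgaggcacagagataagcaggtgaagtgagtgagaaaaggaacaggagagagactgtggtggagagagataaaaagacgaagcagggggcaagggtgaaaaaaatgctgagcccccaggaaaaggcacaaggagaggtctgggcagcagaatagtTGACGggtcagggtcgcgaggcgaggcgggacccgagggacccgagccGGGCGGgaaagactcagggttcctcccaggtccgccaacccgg
The SP1 box was found 1 time before Mest, 7 times before Fzd4, some of them overlapping or touching, and 1 time before Sfrp5, and 32.7% of 32851 RefSeq promoter windows of this length hold it. None of the 3 windows held CTTTGA, the letters through which beta-catenin's TCF/LEF partners bind, which 13.8% of all windows hold. The CREB half-site stood 1 time before Sfrp5 (17.8% of all windows), and the E-box in none of the 3 (6.02% of all windows). CpG pairs numbered 14 for Mest, 25 for Fzd4 and 13 for Sfrp5, above the median of 6 over all windows. For Mest the count depends on the start: the window at chr6:30733256-30733505, not shown, held 7. Promoter windows were found for 6 of the 10 members.

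Sfrp2, Sfrp4 and Sfrp1, the antagonists made by fibroblast-like cells of fat, showed a different pattern from Mest: their spread was largest inside WT. Sfrp2 (chromosome 3, 83765750 to 83774314) was at 6.07, 136 and 115 FPKM in WT and at 70.1, 30.2 and 23.4 FPKM in Rarres2-/-. WT replicates 2 and 3 were above every Rarres2-/- library and WT replicate 1 was below every one. The means were 85.7 ± 69.7 and 41.2 ± 25.2 FPKM (SD, n = 3 each), with a log2 difference of -0.35 (SE 1.13, adjusted p = 0.999 by limma). Without WT replicate 1 it was -1.74 (adjusted p = 0.309), and without WT replicate 2 or 3 it was 0.40 or 0.28.

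Sfrp4 (chromosome 13, 19623175 to 19632825) had 1.03, 36.1 and 33.8 FPKM in the WT libraries, with all Rarres2-/- libraries again between the WT extremes at 11.3, 13.8 and 8.60 FPKM. WT replicates 2 and 3 were close to each other, with a mean 34.0 times that of WT replicate 1. Its log2 difference was -0.19 (SE 1.07, adjusted p = 0.999 by limma), and it was -1.58 without WT replicate 1 (adjusted p = 0.182) and 0.52 and 0.47 without WT replicates 2 and 3. Sfrp1 (chromosome 8, 23411383 to 23449632) was at 0.917, 4.15 and 4.77 FPKM in WT and at 3.45, 2.42 and 1.56 FPKM in Rarres2-/-. Again WT replicate 1 was the lowest library, and the log2 difference of -0.18 (SE 0.443) was -0.69 without it.

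All 10 progenitor and fibroblast markers were also lowest in WT replicate 1. The mean of WT replicates 2 and 3 was 1.11 (Col15a1) to 44.5 times (Dpp4) the level in WT replicate 1. The median was 3.77 times over the 10 markers, and for Sfrp1, Sfrp2 and Sfrp4 it was 4.86, 20.7 and 34.0 times. Within Rarres2-/-, replicate 4 had 0.742 to 2.04 times the mean of the other libraries over the markers (median 1.02). For Sfrp2 the ratio was 2.62, for Sfrp1 1.73 and for Sfrp4 1.01. All 5 macrophage markers were also lowest in WT replicate 1 (sum 50.2 FPKM, other libraries 90.7 to 227 FPKM). In bulk tissue, fewer cells of a type and less RNA of a gene in each cell cannot be told apart, and the part of cell composition in the Sfrp values was not tested. Without both WT replicate 1 and Rarres2-/- replicate 4, Sfrp2 was at -2.19 (SE 0.157), with 0.0248 as its adjusted p by limma (range over its alternatives 0.0248 to 1.0). That fit, chosen with earlier results known and with 2 libraries a genotype, called 68 genes (0.613%; 0.126% higher and 0.487% lower) and 1 of 9 members. In it Sfrp4 was at -1.59 (adjusted p = 0.0532), Sfrp1 at -0.88 (0.0747), Dkk2 at -0.97 (0.0878) and Mest at 1.28 (0.0884). In the same 4 libraries the WT mean FPKM was above the Rarres2-/- mean for 9 of the 10 markers and below it for Col15a1. The ratio ran from 0.761 (Col15a1) to 2.94 (Col1a1) with a median of 2.15. It was above that range for Sfrp2 (4.68) and Sfrp4 (3.12), inside it for Sfrp1 (2.24) and Dkk2 (2.65), and below it for Mest (0.362). The single markers given here were named after their values were seen, as the ends of the range.

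**Figure D2:**
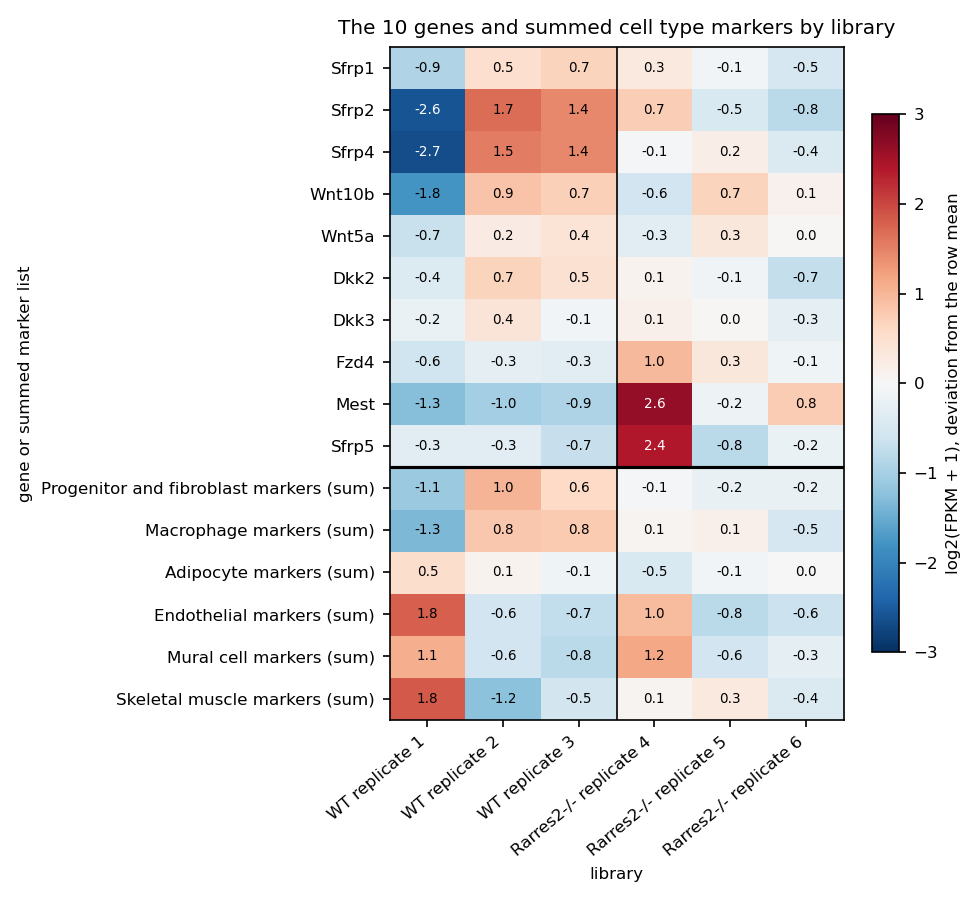
Deviation of log2(FPKM + 1) from each row's mean over the 6 libraries, for the 10 genes (above the line) and for 6 summed cell type marker lists (below). Sfrp1, Sfrp2, Sfrp4, Wnt10b and Wnt5a are lowest in WT replicate 1, as the progenitor and macrophage marker sums are, while Mest and Sfrp5 are highest in Rarres2-/- replicate 4.

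Dkk2 (chromosome 3, 132085266 to 132180304), which acts on Lrp co-receptors, was at 1.20, 3.61 and 3.02 FPKM in WT and at 2.14, 1.71 and 0.793 FPKM in Rarres2-/-. All Rarres2-/- libraries were below WT replicates 2 and 3, and WT replicate 1 lay among them. The log2 difference was -0.47 (SE 0.340, adjusted p = 0.999 by limma). It stayed negative in all 15 alternatives that could give it, from -0.97 to -0.24, with an adjusted p of 0.0363 under array weights (range 0.0363 to 1.0). Among Rarres2-/- libraries that weighted fit rested mostly on replicate 5. Dkk3 (chromosome 7, 112116019 to 112159482), a divergent family member, was at 0.433, 1.16 and 0.566 FPKM in WT and at 0.820, 0.679 and 0.340 FPKM in Rarres2-/-. Its mean of 0.667 FPKM was under the filter of 1 FPKM, so it had no test, and its libraries overlapped.

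Both Wnt ligands among the members overlapped between genotypes. Wnt10b (chromosome 15, 98770712 to 98778206), the ligand that restrains adipogenesis, was at 0.118, 6.02 and 5.31 FPKM in WT and at 1.60, 5.11 and 3.26 FPKM in Rarres2-/-. WT replicate 1 was 47.9 times below the mean of the other WT libraries, the widest such gap among the 10 genes, and Rarres2-/- replicate 4 was the next lowest. The log2 difference of 0.15 (SE 0.723, adjusted p = 0.999 by limma) was -0.71 without WT replicate 1 and -0.14 without Rarres2-/- replicate 5. Wnt5a (chromosome 14, 28504543 to 28527448), which mostly signals without beta-catenin and whose action Sfrp5 opposes, was at 3.09, 6.64 and 7.61 FPKM in WT and at 4.11, 7.18 and 5.64 FPKM in Rarres2-/-. Replicate 1 of WT and replicate 4 of Rarres2-/- were its lowest libraries, and the log2 difference was 0.02 (SE 0.317), turning to -0.31 without WT replicate 1 and -0.15 without Rarres2-/- replicate 5.

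**Figure D3:**
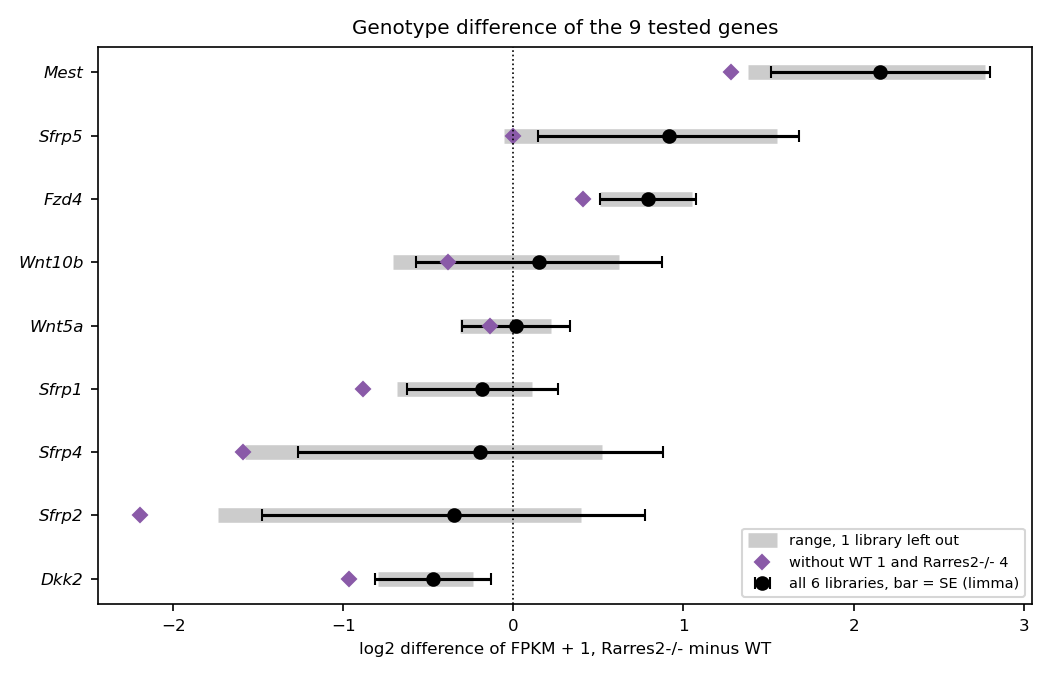
Difference of log2(FPKM + 1), Rarres2-/- minus WT, for the 9 tested genes, with limma's SE (black bars), the range over fits with 1 library left out (grey) and the value without WT replicate 1 and Rarres2-/- replicate 4 (purple diamonds). Mest and Fzd4 stay above 0 and Dkk2 below 0 throughout, while the grey ranges of the other 6 genes cross 0.

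Set side by side per transcript length, the order of levels in WT was led by Sfrp2 (mean 85.7 FPKM), Fzd4 (25.6 FPKM) and Sfrp4 (23.6 FPKM), followed by Sfrp5, Mest, Wnt5a, Wnt10b, Sfrp1, Dkk2 and Dkk3 (0.721 FPKM). In Rarres2-/- Fzd4 (47.0 FPKM) and Mest (46.0 FPKM) stood before Sfrp2 (41.2 FPKM) and Sfrp5 (24.2 FPKM), and Sfrp4, Wnt5a, Wnt10b, Sfrp1, Dkk2 and Dkk3 came after in that order. Neighbours in these orders had overlapping libraries except Dkk2 above Dkk3 in WT and Sfrp4 above Wnt5a in Rarres2-/-. The order of means is thus mostly not separated by the spread of libraries. Over libraries, 7 members were lowest in WT replicate 1 and 3 (Sfrp5, Mest and Fzd4) were highest in Rarres2-/- replicate 4.

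The rest of the Wnt pathway was read from 11 lists, imprinted and fat expansion genes included, chosen with earlier results of these data known. Beside the members, 67 of their genes were tested, and limma called 0 of them, with 6 higher and 4 lower at an unadjusted p under 0.05 (2.2% and 1.73% of all genes). Groups lay apart in 12 genes with Rarres2-/- higher and 4 lower, to be read against 5.81% and 4.53% of all genes. The median difference of these 67 genes was 0.05, beside -0.01 over all genes tested.

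Ligands were few: 6 of 17 Wnt genes with a row were tested (3 with a higher and 3 with a lower mean in Rarres2-/-, median difference -0.03), and all 6 were lowest in WT replicate 1. Wnt11, a ligand of the beta-catenin-independent branch, was at 4.30 ± 2.81 FPKM in WT, beside 3.53 ± 1.36 FPKM in Rarres2-/- (SD, n = 3 each). Wnt5b and Wnt9a had WT means of 1.52 and 1.81 FPKM, beside 0.893 and 1.32 FPKM in Rarres2-/-. Of 6 tested Frizzled genes, 2 had a higher mean in Rarres2-/- and the list median was -0.15, so Fzd4 differed in sign from most of its family. Fzd7, Fzd2 and Fzd8 had log2 differences of -0.37, -0.35 and -0.13, with overlapping libraries. The co-receptor genes Lrp5, Lrp6 and Ryk were all tested, at 0.19, 0.08 and 0.09.

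Of 13 secreted antagonists, 8 were under the filter, Dkk3 among them. Frzb, Wif1 and Dkk1, named after their values were seen, had WT means of 0.106, 0.0799 and 0.0498 FPKM. The antagonists measured above the filter were thus the 5 described above (1 with a higher and 4 with a lower mean, median difference -0.19). Membrane inhibitors had 3 tested genes, all with a higher mean in Rarres2-/-. Apcdd1, which binds Wnt and Lrp proteins at the cell surface, was at 39.7 ± 8.74 and 53.3 ± 7.09 FPKM, and Znrf3, a ubiquitin ligase that removes Frizzled receptors, at 1.07 ± 0.103 and 1.31 ± 0.119 FPKM (SD, n = 3 each). Both lay apart between genotypes, with log2 differences of 0.43 and 0.15, while Kremen1, a Dickkopf receptor, overlapped (0.05). Over all genes tested, 5.81% lay apart with Rarres2-/- higher. Lgr4, the R-spondin receptor, was the only tested gene of its list, at 5.88 ± 1.18 and 8.17 ± 1.58 FPKM with separate groups (log2 difference 0.42).

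Genes for Wnt release and glypicans had 5 of 6 tested members with a higher mean. Gpc1, a cell surface proteoglycan, was at 6.06 ± 1.08 and 8.51 ± 0.940 FPKM with separate groups (log2 difference 0.44, unadjusted p = 0.0337, adjusted p = 0.999 by limma). Wls, the carrier of Wnt proteins to the cell surface, was at 27.0 ± 8.04 and 29.2 ± 1.87 FPKM, and Porcn and Gpc4 had log2 differences of 0.15 and 0.19. In the cytoplasm and nucleus 16 genes were tested, 10 with a higher and 6 with a lower mean. Ctnnb1, which encodes beta-catenin, had equal means within its spread, at 84.4 ± 4.75 and 84.5 ± 3.55 FPKM.

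Of those 16 genes 5 had separate groups, 3 of them higher and 2 lower in Rarres2-/-, where 5.81% and 4.53% of all genes did. Tle3, a TCF co-repressor that also acts with PPARgamma in adipocytes, was at 14.0, 13.9 and 12.8 FPKM in WT and at 40.9, 17.0 and 22.4 FPKM in Rarres2-/-, the same order of libraries within Rarres2-/- as Mest. Its log2 difference was 0.84 (SE 0.302, unadjusted p = 0.0281, adjusted p = 0.999 by limma). Gsk3b and Csnk1a1, kinases of the beta-catenin destruction complex, had differences of 0.16 and 0.17. Dvl2, which relays the Frizzled signal, and Pygo2, a beta-catenin co-activator, were lower at -0.42 and -0.39. Csnk1a1 lies outside the rule for named genes and is given as 1 of these 5.

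Known targets of the pathway gave 6 of 9 tested genes with a higher and 3 with a lower mean. Axin2, the feedback inhibitor used as a standard readout of beta-catenin signalling, was at 4.75, 4.42 and 2.41 FPKM in WT and at 1.43, 2.297 and 2.14 FPKM in Rarres2-/-. Every Rarres2-/- library was below every WT library, narrowly against WT replicate 3, with a log2 difference of -0.69 (SE 0.245, unadjusted p = 0.0265, adjusted p = 0.999 by limma). Twist1, a transcription factor of stromal cells and adipocytes, was at 38.7 ± 1.31 and 29.2 ± 2.44 FPKM (SD, n = 3 each) with separate groups and a difference of -0.40. Nkd1, another feedback inhibitor, was at 1.41 ± 0.563 and 2.35 ± 0.526 FPKM with overlapping libraries, and Apcdd1 and Znrf3, also targets, had higher means as given above. Of the 9 tested targets, 2 were lower and 2 higher with separate groups, where 4.53% and 5.81% of all genes were. These 4 genes thus had no common direction.

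**Figure D4:**
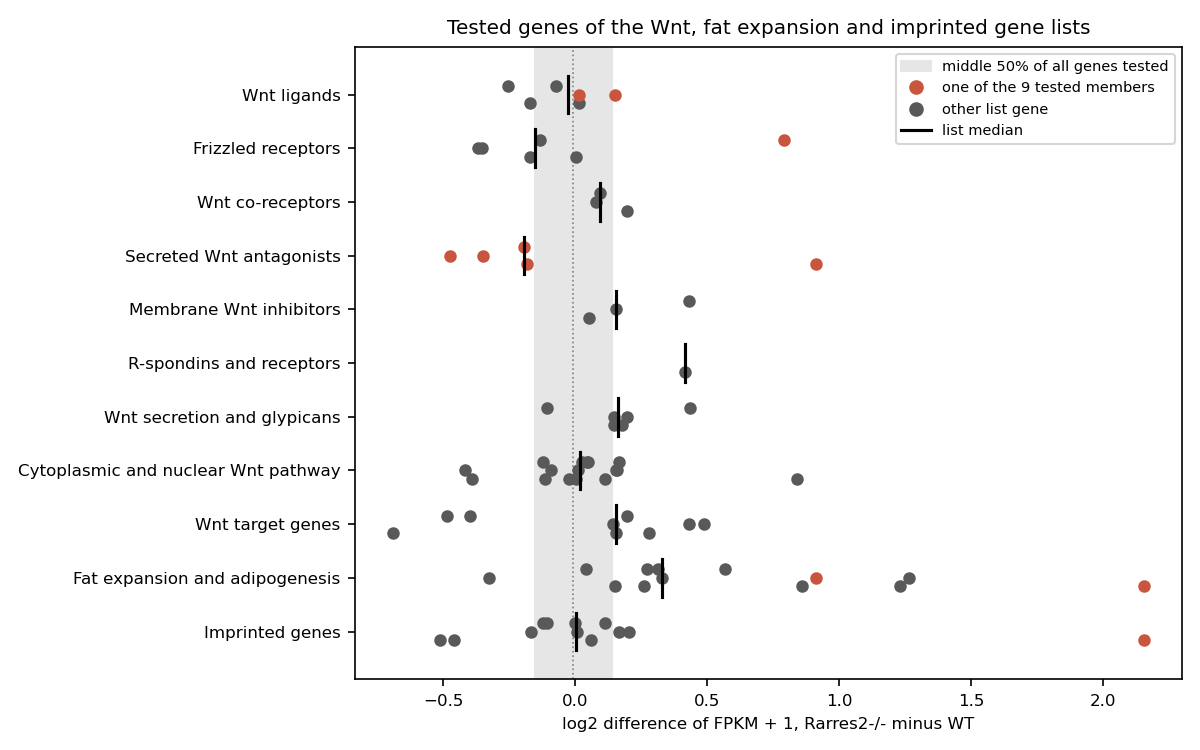
Difference of log2(FPKM + 1), Rarres2-/- minus WT, of each tested gene in the 11 lists, with list medians as black bars, the 9 tested members in red and the middle 50% of all tested genes (-0.15 to 0.14) shaded. Most Wnt lists have their median in or near that band, and the fat expansion list has its median at 0.33, with Mest farthest to the right. All lists were chosen with earlier results of these data known.

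Genes of fat expansion and adipogenesis had 12 of 13 tested members with a higher mean in Rarres2-/-, a median difference of 0.33, and 6 with separate groups, all higher. Over all genes tested, 48.6% had a higher mean and 5.81% lay apart and higher. The list was chosen with earlier results of these data known, and Mest and Sfrp5 are among the 13. With no set test as well, that count describes the list only. Npr3, the clearance receptor of natriuretic peptides, was at 26.7, 31.5 and 32.8 FPKM in WT and at 82.6, 66.6 and 68.5 FPKM in Rarres2-/-. All 3 Rarres2-/- libraries were at least 66.6 FPKM, far above WT, and the difference was 1.23 (SE 0.163, adjusted p = 0.519 by limma). The early adipogenic factors Cebpd and Cebpb had differences of 1.26 (SE 0.373) and 0.86 (SE 0.235). Cebpd was at 9.95, 17.0 and 30.8 FPKM in WT and at 38.2, 50.6 and 41.7 FPKM in Rarres2-/-. Bmp3, a BMP family ligand, was at 7.68 ± 1.30 and 11.8 ± 1.63 FPKM (SD, n = 3 each), and Zfp423, a preadipocyte factor, at 7.85 ± 0.351 and 8.83 ± 0.565 FPKM, both named after their values were seen. Pparg, the main adipogenic regulator, was the only tested gene of the list with a lower mean (-0.32, also named after its value was seen). It was at 84.4 FPKM in Rarres2-/- replicate 4, and replicates 5 and 6, at 186 and 185 FPKM, lay within the WT range of 151 to 210 FPKM. Fabp4, the adipocyte fatty acid carrier, had the highest level of the list, with 37663 ± 4764 and 41049 ± 16065 FPKM.

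The imprinted genes had no common direction. Of 12 tested, 6 had a higher and 6 a lower mean, with a median difference of 0.00. Mest was the only tested 1 with separate groups, which 10.3% of all genes had. Peg3, Igf2, Meg3 and Igf2r, named after their values were seen, were highest in Rarres2-/- replicate 4 as Mest was, at 7.21, 4.57, 24.1 and 10.3 FPKM. Unlike Mest, which was lowest in WT replicate 1, these genes had that library as their next highest, at 4.40, 4.15, 18.8 and 8.74 FPKM. Their genotypes overlapped, while Peg10, under the filter, lay apart at 0.446 to 0.564 FPKM among WT and 0.725 to 0.944 FPKM among Rarres2-/- libraries. H19 had a difference of -0.51, Slc38a4 -0.46 and Grb10 -0.17. In contrast to Peg3, Igf2, Meg3 and Igf2r, H19 and Grb10 were lowest in Rarres2-/- replicate 4, at 1.83 and 12.8 FPKM. Ndn, the most abundant, was at 36.9 ± 6.08 and 38.5 ± 5.99 FPKM (SD, n = 3 each).

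The tested genes most like Mest over the 6 libraries, by Pearson's r of log2(FPKM + 1), were Fam20c (r = 0.996), Mcam (0.995) and Dio2 (0.993), out of 11085 ranked. Fam20c was at 3.11 to 4.47 FPKM in WT and at 21.7, 6.03 and 8.96 FPKM in Rarres2-/- replicates 4 to 6. Among the members Fzd4 (r = 0.889, rank 152) and Sfrp5 (r = 0.864, rank 216) were the most like Mest. For Sfrp4 the most alike were Vwa5a, Lgmn and Il1r2 (r = 0.998 each), and Sfrp2 had r = 0.951 and Sfrp1 r = 0.925. For Sfrp5 they were Rasgrf2, Iqsec1 and Vat1l (r = 0.991, 0.991 and 0.988). These correlations describe 6 libraries, whose genotype and depth all genes share. Rarres2-/- replicate 4 was the highest library for Mest and Sfrp5, and WT replicate 1 the lowest for Sfrp4. Mcam, an adhesion molecule of vascular walls, and Dio2, which activates thyroid hormone, thus had the same high library as Mest.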

How the data were processed

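Per the file headers, the authors deposited FPKM per gene symbol, 1 table for each of 6 libraries; the header for WT replicate 3 gives no unit and its values were read as FPKM from their rows and scale. Bowtie and mm10 are listed in the submitters' processing notes, and the FPKM program, annotation and strand handling were not given in the sources used here. Rows without a symbol (737 per table, 0.793% to 4.91% of the sum) were left out. FPKM keeps no counts, so absolute depth is unknown; relative depth was 0.499 to 1.01 times that of WT replicate 2. Genes averaging 1 FPKM or more over the 6 libraries were tested on log2(FPKM + 1) with limma 3.58.1 in R 4.3.3 (eBayes with trend, two-sided, genotype as the only term, Benjamini-Hochberg over 11086 genes, threshold 0.05). Library numbers are not shared between genotypes, so there was no block. The members and lists were chosen with earlier results of these data known. Named genes are the 10 members, Rarres2, and per list the most abundant gene and up to 4 with the smallest p; marker lists are given by their sums, and the 3 most alike genes are given for Mest, Sfrp5 and Sfrp4. Coordinates and promoters are RefSeq's on GRCm38.p6 (mm10). Alternatives were other scalings, filters, a pseudocount of 0.1, array weights, no trend, robust fitting, a threshold of 0.1 and leaving libraries out.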

Additional observations from a re-analysis of the deposited data

How the results depend on the processing

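With any 1 library left out, log2 differences ran from -0.69 to 0.11 for Sfrp1, -1.74 to 0.40 for Sfrp2, -1.58 to 0.52 for Sfrp4, -0.057 to 1.55 for Sfrp5, -0.31 to 0.22 for Wnt5a and -0.71 to 0.62 for Wnt10b, so these 6 had no stable sign; the count of all genes called ran from 0 to 1. Mest, Fzd4 and Dkk2 kept their sign in every alternative that could test them, and no scaling, filter or pseudocount turned the sign of any of the 9 tested members. Without both WT replicate 1 and Rarres2-/- replicate 4, Sfrp2 passed the threshold at -2.19. Sfrp1 was at -0.88 and Sfrp4 at -1.59 without passing it, and Sfrp5, Wnt5a and Wnt10b turned to -0.00227, -0.14 and -0.38. In all, 68 genes passed (0.613%), and 2 of the 76 tested list genes did, Sfrp2 and Npr3. Array weights called 1524 genes (13.7%), and 15 of the 76 tested list genes. Sfrp2 at -1.88, Dkk2 at -0.70 and Fzd4 at 0.61 were past the threshold, and Sfrp5 and Wnt10b turned to -0.19 and -0.12. Those weights rested mostly on replicate 5 within Rarres2-/-. The filter of 5 FPKM in 3 libraries, scaling by the upper quartile or to sums that leave out the 20 most abundant genes, and a threshold of 0.1 each called 1 gene. At the threshold of 0.1 the gene was Rarres2 (adjusted p = 0.0597 by limma). The cause of these changes was not tested. That filter dropped Sfrp1, Dkk2 and Dkk3. Depth limits the lowest values most, such as Wnt10b at 0.118 FPKM in WT replicate 1, whose relative depth was 0.499. No paired analysis was possible because the genotypes share no library numbers.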

Other observations

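The mix of Sfrp transcripts differed between libraries. Sfrp2 made up 73.7% and 72.1% of the summed FPKM of Sfrp1, Sfrp2, Sfrp4 and Sfrp5 in WT replicates 2 and 3, 38.2% in WT replicate 1, and 48.9%, 58.3% and 55.2% in Rarres2-/- replicates 4, 5 and 6. WT replicate 1 was thus below every Rarres2-/- library, and the other WT libraries were above every one, a difference that was not tested. Sfrp5 was the largest share in WT replicate 1, at 49.6%, where its own level (7.89 FPKM) was close to that of the other WT libraries and the Sfrp sum was 15.9 FPKM, against 42.3 to 184 FPKM elsewhere. In Rarres2-/- replicate 4 Sfrp5 held 40.8% with a sum of 143 FPKM, so a similar share came with a level 7.40 times as high.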
